A study of Mus musculus with 6 samples.

Results

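The 10 genes described here are myogenic transcription factors (Pax3, Pax7, Myf5, Myod1, Myog and Myf6), genes of myoblast fusion (Mymk and Mymx) and early muscle markers (Des and Chrnd). They were taken by mouse symbol from a table of 16671 genes, and all 10 of the 10 symbols were found in it, so no member was lost to a filter on low values. The cells were fibro-adipogenic progenitors (FAPs), stromal cells of the space between muscle fibres, which had been isolated by FACS from hindlimb muscle of wild-type mice aged 4 to 5 months. The controls (3 libraries) received vehicle, and the treated cells (3 libraries) received C1q, the recognition protein of the classical complement pathway, at 100 µg/ml. Each library started from 10 ng of total RNA amplified as cDNA. The strain, the time in C1q and the sorting gates are unstated in the labels. The RNA extraction text names muscle stem cells, whereas the other labels name FAPs.

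Skeletal muscle is built by a separate lineage from FAPs. Its stem cells carry the paired-box factors Pax7 and, in some muscles, Pax3. On activation they switch on Myf5 and Myod1, then Myog and finally Myf6, basic helix-loop-helix factors that pair with E proteins and bind the E-box motif. Differentiating cells fuse through the membrane proteins myomaker (Mymk) and myomixer (Mymx) and make desmin and the muscle acetylcholine receptor. FAPs give rise to fat and fibrous cells and support the myogenic cells around them.

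Library depth ran from 5379209 reads in control replicate 3 to 38861152 in control replicate 1. The values are normalised read counts, that is, reads per gene divided by a size factor for each library. A single read is worth 4.25 units in control replicate 3 and 0.583 to 0.975 units elsewhere, so low values are least precise in that library. Whether replicates are separate mice or cultures is not stated, and p-values here reflect the scatter among these 6 libraries, which may be technical. Groups are given as mean ± SD with n = 3, and log2 fold changes are C1q minus control of log2(value + 1), a scale that shrinks the changes of low genes. A gene is called when its limma-trend p, adjusted by Benjamini-Hochberg over all 16671 genes, is below 0.05.

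Myod1, Myog, Mymk and Myf5 were lower in FAPs treated with C1q, the first 3 by 2.65-fold to 2.92-fold. Of the 10 genes 4 were called lower and 0 higher, beside 18.7% of all genes called lower. The other 6 genes were not called, and 5 of them had a lower fitted value with C1q. The median log2 fold change of the 10 was -1.42, beside 0.03 for all genes. The groups did not overlap at 4 of the 10 genes, all lower with C1q, beside 52.1% of all genes in either direction and 25.4% with C1q lower. These were the 4 that were called. The call count depended on the model and on single libraries, in both directions. With the replicate number as a block it was 7, adding Pax3, Mymx and Des. With edgeR or DESeq2 on the recovered reads it was 8, adding Myf6, Mymx, Des and Chrnd. It fell to 2, Myf5 and Myod1, with a trend of the values on transcript length removed. The same 2 were left without control replicate 2 or without C1q replicate 2 or 3. Without C1q replicate 1 the count was 3, Pax3, Myf5 and Myod1. In a bulk culture, fewer myogenic cells and less RNA of these genes per cell cannot be told apart.

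**Figure D1:**
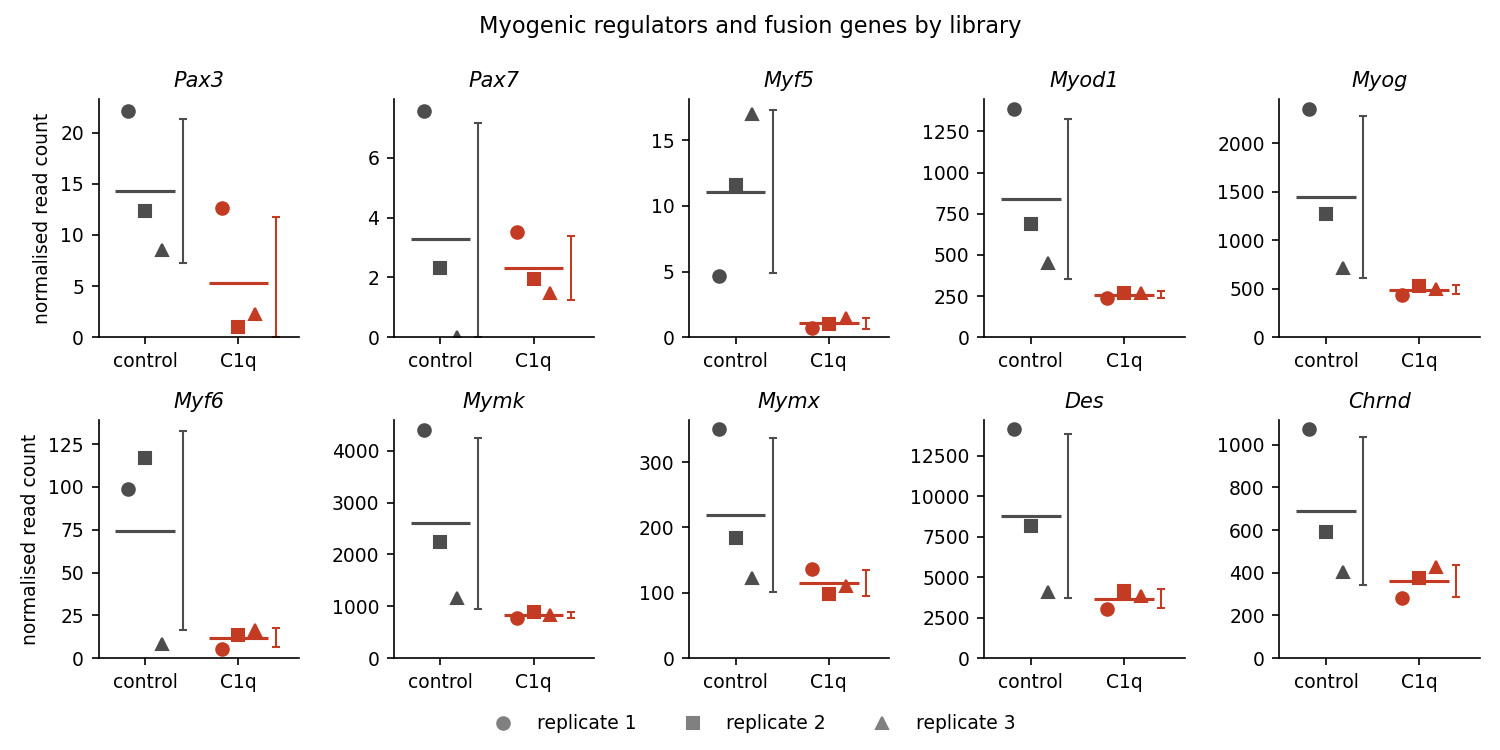
Normalised read count (vertical axes, each from 0) of the 10 genes in 3 control (grey) and 3 C1q (red) libraries; symbols mark the replicate number, horizontal lines the mean and side bars the SD, with lower arms stopped at 0. For Myod1, Myog, Mymk, Mymx, Des and Chrnd the controls are spread widely with replicate 1 highest and replicate 3 lowest, while the C1q libraries lie close together at or below control replicate 3, or just above it.

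The plot of values by library shows that the controls were not alike. At 8 of the 10 genes control replicate 1 was highest, replicate 2 next and replicate 3 lowest, an order seen at 19.3% of all genes. Myf5 and Myf6 were the exceptions. For Pax3 and Pax7 the order is uncertain, as control replicate 3 held 2 and 0 reads. The difference between groups therefore sits on a spread of about the same size within the controls: the ratio of control replicate 1 to control replicate 3 was 3.08 for Myod1, 3.28 for Myog and 3.82 for Mymk. Control replicate 3 stood above all 3 C1q libraries at 4 of the 10 genes, beside 38.4% of all genes.

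Promoter sequence from RefSeq (GRCm38.p6) matched 4 of the 10 genes: Myog, Des, Myf5 and Pax7. The 250 bases before the start of Myog and of Des are shown because these genes have similar profiles over the 6 libraries, and because myogenic factors bind E-boxes. Capitals mark each E-box, searched as CANNTG, which reads the same on both strands; no matches overlapped. The Myog window is chr1:134289754-134290003 and the Des window chr1:75360042-75360291, both on the plus strand.
Myog: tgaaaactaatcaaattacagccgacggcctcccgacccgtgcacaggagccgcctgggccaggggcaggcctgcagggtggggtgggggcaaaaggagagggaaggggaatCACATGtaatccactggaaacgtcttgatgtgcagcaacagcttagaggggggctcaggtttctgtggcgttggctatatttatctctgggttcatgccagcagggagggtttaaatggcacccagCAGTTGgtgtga
Des: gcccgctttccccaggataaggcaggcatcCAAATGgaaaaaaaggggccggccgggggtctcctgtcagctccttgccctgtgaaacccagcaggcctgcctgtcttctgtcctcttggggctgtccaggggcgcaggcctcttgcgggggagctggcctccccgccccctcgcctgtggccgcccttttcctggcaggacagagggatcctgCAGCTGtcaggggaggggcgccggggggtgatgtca
Myog held 2 E-boxes, whose first bases lie 138 and 12 bases before the start, and Des held 2, at 220 and 36 bases. At least 1 E-box is present in 66.2% and at least 2 in 31.8% of the 32851 RefSeq windows of this length. The windows of Myf5 and Pax7 are not described, because the table's start for these genes lies inside the gene span given below. A match is a description of the letters and not a binding site.

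Myod1 encodes the factor that commits cells to the myogenic lineage (Entrez gene 17927, chromosome 7, 46376474 to 46379092, GRCm38 throughout). It stood at 1386, 686 and 451 in control replicates 1, 2 and 3 and at 236, 271 and 268 in C1q replicates 1, 2 and 3. Every C1q library lay below every control. The mean was 841 ± 487 in controls and 258 ± 19.4 with C1q (log2 fold change -1.54 ± 0.35 SE, adjusted p 0.0115). Leaving out any library kept the call, with adjusted p from 0.0018 to 0.0433.

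Myog encodes myogenin, which drives terminal differentiation (Entrez gene 17928, chromosome 1, 134290004 to 134292548). Its values were 2356, 1269 and 718 in the controls and 438, 528 and 498 with C1q. The groups again did not overlap, and the C1q libraries differed among themselves by only 1.21-fold. The mean went from 1448 ± 833 to 488 ± 46.1 (log2 fold change -1.41 ± 0.37 SE, adjusted p 0.0200). The call was lost without control replicate 2 (0.0526) or without C1q replicate 1 (0.0673), 2 (0.0508) or 3 (0.0554), and narrowly with a trend of the values on transcript length removed (-1.11, with an adjusted p just above the threshold).

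Myf6, also known as MRF4, is the factor most tied to mature fibres (Entrez gene 17878, chromosome 10, 107492848 to 107494723). Controls held 98.5, 117 and 8.50, and C1q libraries 5.64, 13.6 and 16.4. Control replicates 1 and 2 stood far above the rest, while control replicate 3, with 2 reads, lay among the C1q libraries. Myf6 was not called (log2 fold change -2.01, 95% interval -4.20 to 0.18, adjusted p 0.132). Without control replicate 3 the log2 fold change was -3.18 with an adjusted p of 0.0016, and without control replicate 2 it was -1.37. Pooled over libraries, 322 control reads against 44 C1q reads gave a level 8.53 times as high in controls (95% exact interval 6.21 to 12.0, counting error only).

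Myf5 marks committed stem cells and early myoblasts, and lies beside Myf6 on chromosome 10 (Entrez gene 17877, 107482908 to 107486927). It was rare in every library, with 8, 15 and 4 reads in the controls and 1, 1 and 2 reads with C1q. As normalised counts these were 4.66, 11.6 and 17.0 against 0.705, 0.975 and 1.49. Myf5 was called lower (log2 fold change -2.42 ± 0.55 SE, adjusted p 0.0114), and leaving out any library kept the call. At these counts the size of the change depends on the pseudocount: the log2 fold change was -2.76 with 0.5 and -1.33 with 5. The pooled level was 7.87 times as high in controls (95% exact interval 2.74 to 30.9). Unlike Myod1 and Myog, Myf5 was lowest in control replicate 1 and highest in control replicate 3, although the latter value rests on 4 reads, with an exact Poisson interval of 4.63 to 43.5 units.

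Pax7, the defining factor of muscle stem cells (Entrez gene 18509, chromosome 4, 139737059 to 139833530), was close to the detection limit. Reads numbered 13, 3 and 0 in the controls and 5, 2 and 2 with C1q. The count of 0 in control replicate 3 allows up to 3 reads, or 12.8 units, which exceeds the value of every other library. Pax7 was not called (log2 fold change 0.08, 95% interval -1.84 to 1.99, adjusted p 0.952), and the pooled ratio of control to C1q was 2.07 (95% exact interval 0.862 to 5.32). A difference was therefore not detectable at this depth, and the fitted value turned to -0.73 without control replicate 3. Pax3, its paralogue (Entrez gene 18505, chromosome 1, 78101267 to 78197136), had 38, 16 and 2 reads in the controls and 18, 1 and 3 with C1q. C1q replicate 1 overlapped the controls. Pax3 was not called (-1.69, 95% interval -3.44 to 0.06, adjusted p 0.116). It was called with the replicate block (adjusted p 0.0429) and without C1q replicate 1 (-2.50, adjusted p 0.0228), and stood at -1.10 without C1q replicate 2.

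Mymk encodes myomaker, the membrane protein that begins the joining of myoblast membranes (Entrez gene 66139, chromosome 2, 27061636 to 27072161). It was at 4401, 2245 and 1152 in the controls and at 781, 891 and 835 with C1q. All 3 C1q libraries were below all controls and within 1.14-fold of each other. The mean went from 2599 ± 1653 to 836 ± 55.1 (log2 fold change -1.43 ± 0.41 SE, adjusted p 0.0286). The call was lost without control replicate 2 (0.0707) or without C1q replicate 1 (0.0838), 2 (0.0692) or 3 (0.0751), and with the length trend removed (-1.09, adjusted p 0.0736).

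Mymx encodes myomixer, the micropeptide that completes fusion after myomaker (Entrez gene 653016, chromosome 17, 45600961 to 45602196). Values were 351, 185 and 123 in the controls and 137, 98.4 and 110 with C1q. C1q replicate 1 exceeded control replicate 3, so the groups overlapped. Mymx was not called (log2 fold change -0.81, 95% interval -1.63 to 0.02, adjusted p 0.111), but was with the replicate block (0.0320) and without control replicate 3 (-1.15, adjusted p 0.0157). Its longest transcript, 804 nucleotides, is the shortest of the 10, and with the length trend removed the log2 fold change was -0.20 (adjusted p 0.684). The ratio of Mymk to Mymx within a library was 12.5, 12.2 and 9.34 in the controls and 5.71, 9.05 and 7.61 with C1q. The exact permutation test, two-sided, gave 0.1, the lowest p possible for 3 against 3 libraries.

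Des encodes desmin, the intermediate filament of muscle, which smooth muscle and pericytes also make (Entrez gene 13346, chromosome 1, 75360292 to 75368579). Its counts were the highest of the 10 genes, at 14140, 8149 and 4073 in the controls and 3054, 4165 and 3843 with C1q. C1q replicate 2 lay just above control replicate 3. The mean went from 8787 ± 5064 to 3687 ± 571, and Des was not called (log2 fold change -1.09, 95% interval -2.01 to -0.17, adjusted p 0.0641). It was called with the replicate block (0.0464), with edgeR and TMM scaling (0.0307) and without control replicate 3 (-1.55, adjusted p 0.0025). An exon of Gm15179 overlaps Des on the other strand, and as no strand setting is stated their reads cannot be told apart.

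Chrnd encodes the delta subunit of the muscle acetylcholine receptor (Entrez gene 11447, chromosome 1, 87190597 to 87200070). It stood at 1073, 590 and 404 in the controls and at 280, 376 and 425 with C1q, and C1q replicate 3 lay above control replicate 3. Chrnd was not called (log2 fold change -0.84, 95% interval -1.61 to -0.06, adjusted p 0.0852), but was without control replicate 3 (-1.16, adjusted p 0.0137). The intervals of Des and Chrnd leave out 0 for a single gene, yet neither passed the adjustment over all genes.

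**Figure D2:**
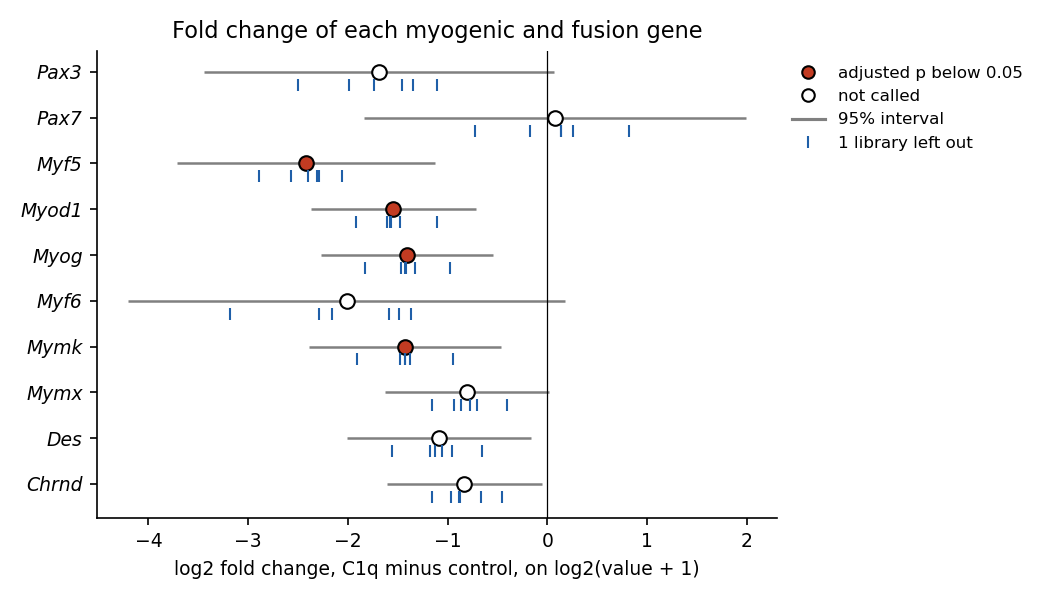
Log2 fold change, C1q minus control, of each gene (circles, red where called) with its 95% interval (grey line, unadjusted); blue ticks give the value with each of the 6 libraries left out. Myf5, Myod1, Myog and Mymk are called lower, all left-out values of 9 genes stay below 0, and those of Pax7 fall on both sides of 0.

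Levels of different genes can be compared per length, here as normalised counts per kilobase of the longest annotated transcript. In C1q libraries the order was Des (1218 ± 189), Mymk (605 ± 39.8), Myog (326 ± 30.9), then Mymx (143 ± 24.4), Myod1 (139 ± 10.4) and Chrnd (122, from 95.1 to 144), which did not differ beyond their spread, then Myf6 (9.43 ± 4.44). Pax3 (1.37 ± 1.66), Myf5 (0.508 ± 0.193) and Pax7 (0.397 ± 0.182) were lowest and overlapped. In controls Des (2902 ± 1672), Mymk (1881 ± 1196) and Myog (968 ± 557) again led. Their spreads across libraries overlapped, but the order was the same within each control library. Myod1 (452 ± 262), Mymx (273 ± 146), Chrnd (234 ± 117) and Myf6 (59.0 ± 45.8) came next, and Myf5 (5.32 ± 2.97), Pax3 (3.71 ± 1.82) and Pax7 (0.563 ± 0.663) were lowest. In both groups the differentiation factor Myog and the fusion gene Mymk stood far above the stem cell factors Pax7 and Myf5.

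Many genes of the muscle fibre were lower as well. Of 29 myofibre genes measured, 15 were called lower and 2 higher, beside 18.7% of all genes lower and 19.7% higher (median log2 fold change -1.22). The 17 calls became 8 without C1q replicate 1, 10 without C1q replicate 3, and 11 without C1q replicate 2, control replicate 1 or control replicate 2. They became 24 without control replicate 3 or with edgeR, and 26 with array weights. Calls over all genes moved in the same direction in these fits. From 6389 they became 4744, 4683 and 4599 without C1q replicate 1, 2 and 3. Without control replicate 1 or 2 they were 5388 and 5800. They were 7242 without control replicate 3, 6881 with edgeR and TMM scaling and 7413 with array weights. By mean normalised count over all 6 libraries, not per length, the first 3 genes were the skeletal actin gene Acta1 (18611 ± 11171 against 7030 ± 1580, not called at an adjusted p of 0.0627, but at 0.0431 with the replicate block and 0.0022 without control replicate 3), the embryonic myosin gene Myh3 and the adult fast myosin gene Myh1. Myh3 was at 28376, 14137 and 10500 in the controls and 5078, 8656 and 7602 with C1q (-1.22, adjusted p 0.0308). That call was lost without control replicate 2 (0.0563) or C1q replicate 1 (0.104) or 3 (0.0668). Myh1 was not called (-1.08, adjusted p 0.0960), but was without control replicate 3 (-1.59, adjusted p 0.0052). Myh2 and Myh7, the myosins of fast oxidative and slow fibres, were the 2 called higher and are named after their values were seen. The Myh7 call was lost in each fit that left out 1 library other than control replicate 2, with adjusted p up to 0.109.

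The sum of the 29 myofibre genes was 220826 in control replicate 1, 121430 in 2 and 63384 in 3, and 37508, 58153 and 50321 with C1q. These values have the order of the regulators in the controls. Myog made 10.7, 10.5 and 11.3 counts per 1000 myofibre counts in the controls and 11.7, 9.08 and 9.89 with C1q. Mymk made 19.9, 18.5 and 18.2 against 20.8, 15.3 and 16.6, and Myod1 6.28, 5.65 and 7.11 against 6.29, 4.66 and 5.33. The groups overlapped for all 3, and the exact two-sided permutation p over 3 against 3 libraries was 0.5, 0.5 and 0.3. Des made 64.0, 67.1 and 64.3 counts in the controls and 81.4, 71.6 and 76.4 with C1q, and Chrnd 4.86, 4.86 and 6.37 against 7.48, 6.47 and 8.45. These were the 2 of the 10 genes whose ratio did not overlap between groups, beside 54.2% of all genes, each with an exact p of 0.1, the smallest possible, and 0.5 adjusted over 10 ratios. A p of this size does not show that the other ratios were equal.

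**Figure D3:**
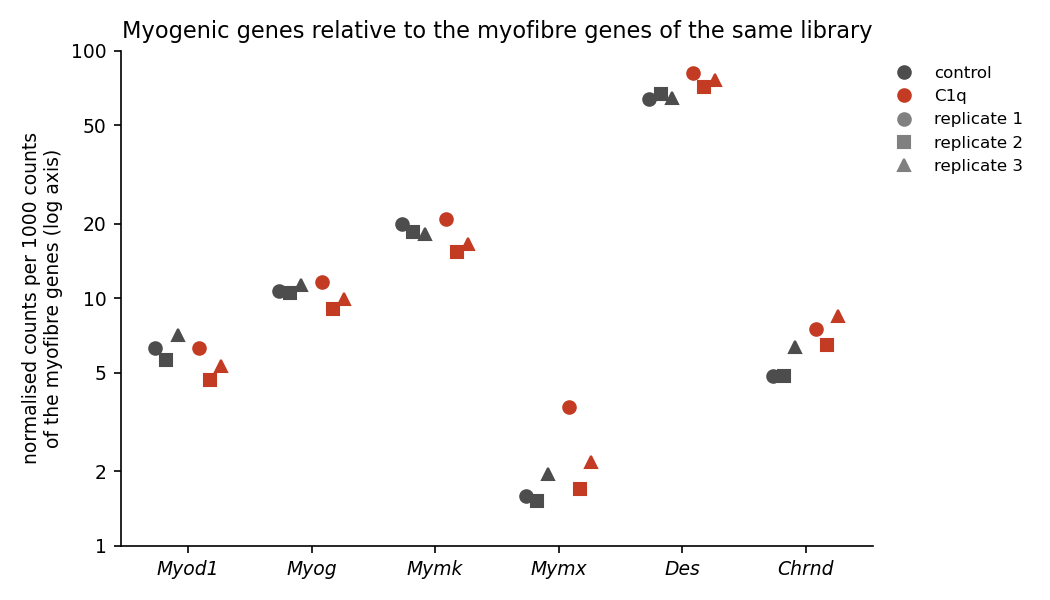
Normalised counts of 6 genes per 1000 normalised counts of the 29 myofibre genes in the same library, on a log axis, for controls (grey) and C1q (red), with symbols for the replicate. Myod1, Myog and Mymk overlap between the groups, Des and Chrnd lie higher with C1q, and Mymx is raised mainly in C1q replicate 1.

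Within-library ratios among Myod1, Myog and Mymk were also narrow. Ratios with other members were not all so: Mymk to Mymx, given above, ran from 5.71 to 12.5 over the 6 libraries. Des to Mymk was 3.21 to 3.63 in controls and 3.91 to 4.68 with C1q (exact permutation p 0.1, the smallest possible). Mymk to Myog was 1.87, 1.77 and 1.60 in the controls and 1.78, 1.69 and 1.68 with C1q. Myog to Myod1 was 1.70, 1.85 and 1.59 against 1.85, 1.95 and 1.86, with an exact permutation p of 0.1, the smallest possible. The groups all but touched, at 1.851 in control replicate 2 and 1.854 in C1q replicate 1. Over the 6 libraries, the Pearson correlation of each gene's log2 value with the mean of the others was 0.98 for Myod1, Myog and Mymk, 0.94 for Des, 0.91 for Chrnd, 0.90 for Mymx and 0.81 for Myf6. It was 0.64 for Pax3, 0.50 for Myf5 and 0.43 for Pax7, the 3 genes with few reads. These correlations describe 6 points that share the group difference and the spread of the controls.

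Markers of other cells were read in the same libraries, and those of FAPs were present in each. Pdgfra, the FAP receptor, was at 18502, 15908 and 24176 in the controls and 34035, 31450 and 33086 with C1q, and 7 of 14 FAP markers were called higher and 0 lower, beside 19.7% and 18.7% of all genes. The same shares stand beside each marker count that follows. The FAP list summed to 436546 to 561467 in controls and 763255 to 943776 with C1q. The Pdgfra call was lost with the length trend removed (0.37, adjusted p 0.0946), as were those of Dpp4 (0.99, 0.0763) and Col1a1 (0.45, 0.187). In that fit Ly6a and Osr1 were called higher instead (0.67 and 0.46, adjusted p 0.0036 and 0.0314). Dpp4 and Col1a1 also lost the call in several fits that left out 1 library, with adjusted p up to 0.0835 and 0.0905. Tenocyte markers summed to 9636, 18029 and 35688 in control replicates 1, 2 and 3 and to 44472 to 96309 with C1q, an opposite order to the myogenic genes in the controls, and 2 of 5 were called higher and 1 lower, or all 5 in either direction with the replicate block. Pericyte and smooth muscle markers, of interest because those cells make desmin, summed to 2680 to 3099 in controls and 5143 to 6801 with C1q, with 3 of 7 called higher and 0 lower, while Rgs5, a defining pericyte marker, had a value of 0 to 6.72. Of the endothelial markers 0 of 5 were called (sums of 608 to 1287 and 572 to 1274), and of the immune markers 0 of 6 (152 to 274 and 211 to 602). With the replicate block Emcn was called lower (-1.59, adjusted p 0.0253) and Lyz2 higher (1.30, adjusted p 0.0056). Pecam1, which defines endothelial cells, had 123 reads in control replicate 2 and 0 to 14 elsewhere. Adgre1 and Tyrobp, which mark macrophages and myeloid cells, had 22 and 20 reads in C1q replicate 2 and at most 7 and 4 elsewhere. Of 5 Schwann cell markers 2 were called higher, with sums of 76.5 to 140 and 212 to 228, and both calls were lost without control replicate 1 or without C1q replicate 1. The part of cell composition in the fall of the myogenic genes was not tested.

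**Figure D4:**
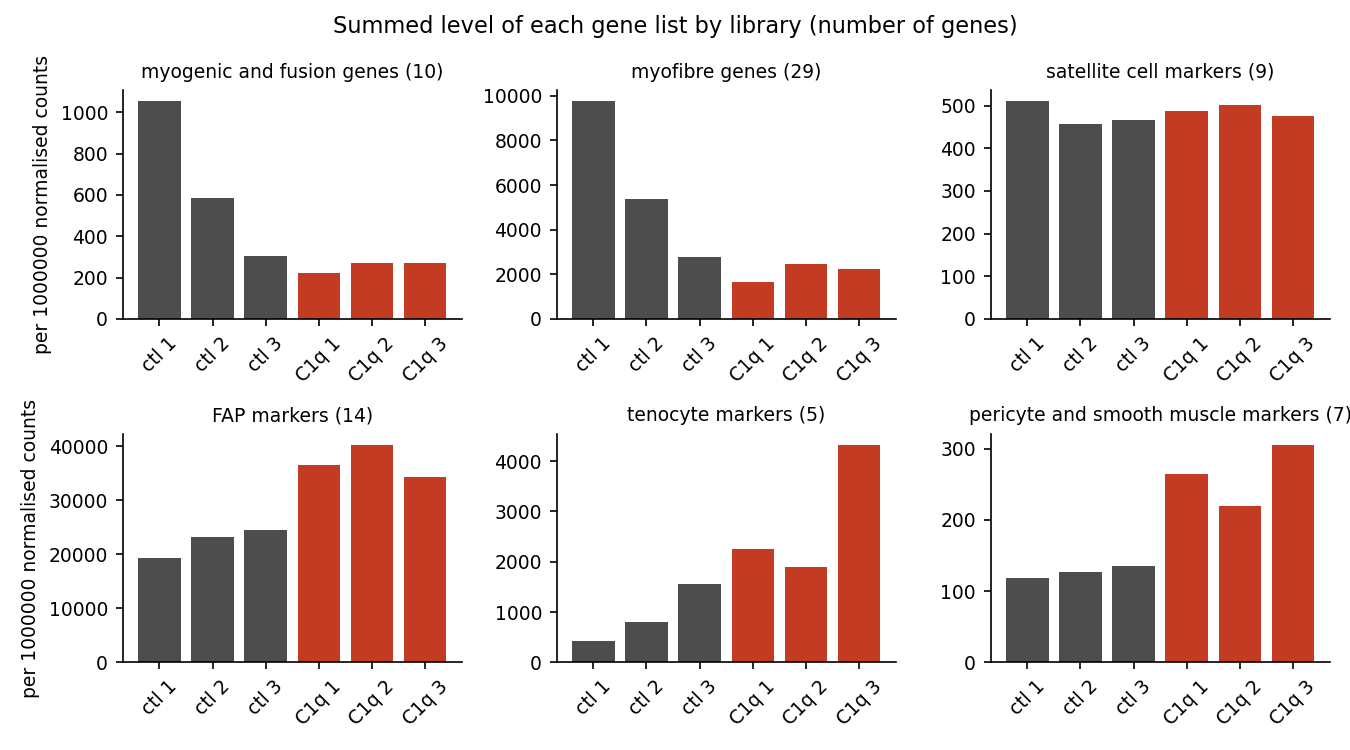
Summed normalised counts of 6 gene lists per 1000000 normalised counts of the library (vertical axes from 0), for control (ctl, grey) and C1q (red) replicates. The 10 myogenic and fusion genes and the 29 myofibre genes share a profile that is highest in control 1, and FAP, tenocyte and pericyte markers are higher with C1q. Only the sum of the satellite cell markers is level: it is mostly Vcam1 and Sdc4, while Cdh15 was called lower.

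Of 12 satellite cell markers listed beyond the 10 genes, 9 were measured. Of these 9, 1 was called higher and 1 lower (median -0.02), beside 19.7% and 18.7% of all genes. The list summed to 10369 to 11549 in controls and 10592 to 11746 with C1q. Vcam1, an adhesion molecule that stromal cells also make, was higher (3858 ± 280 against 5934 ± 702, 0.62, adjusted p 0.0029). Vcam1 and Sdc4 (4634 ± 824 against 3761 ± 216) make up most of that sum and had fitted values of opposite sign. The level sum therefore does not show that single markers were level. Cdh15, the M-cadherin of satellite cells and myoblasts, was at 812, 300.4 and 204 in the controls and 88.8, 138 and 105 with C1q, the order of the controls seen for Myod1. It was called lower (-1.75, adjusted p 0.0205), and the call was lost without C1q replicate 1 (0.0716) or 3 (0.0612). The other 2 of highest level, Sdc4 and Itga7, were not called (adjusted p 0.102 and 0.137). Sdc4 was called lower with the replicate block (-0.29, adjusted p 0.0297), and Itga7 with limma-voom (-0.84, adjusted p 0.0436), with array weights (adjusted p 0.0106) and without control replicate 3 (-1.05, adjusted p 0.0049).

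The acetylcholine receptor and its synaptic partners did not move together. Of 11 genes 4 were called higher and 3 lower (median -0.24), against 19.7% and 18.7% of all genes. The 7 calls became 3 without C1q replicate 1 or 3. Chrna1, the receptor's alpha subunit, was at 5618, 3502 and 2257 in the controls and 1225, 1684 and 1515 with C1q (-1.28, adjusted p 0.0124). Rapsn, which encodes the receptor-clustering protein rapsyn, was lower too (-1.39, adjusted p 0.0183), though not without control replicate 2 (0.0597) or C1q replicate 1 (0.0645) or 3 (0.0549). The fetal subunit gene Chrng, neighbour of Chrnd, was at 2075, 1122 and 523 against 414, 529 and 519 and was not called (-1.14, adjusted p 0.0732); it is named after its value was seen. It was called lower with edgeR and TMM scaling (adjusted p 0.0233), with DESeq2 (0.0309), with limma-voom (0.0176), with array weights (0.0049) and without control replicate 3 (-1.65, adjusted p 0.0024). The subunit genes Chrne and Chrnb1, also named after their values were seen, had lower fitted values too and were not called (-1.67 and -0.24, adjusted p 0.0579 and 0.622). Chrne had at most 21 reads in a library. Both were called lower without control replicate 3 (adjusted p 0.0239 and 0.0111). Lrp4, the agrin receptor, and Agrn, which encodes agrin, were higher (0.86 and 0.95, adjusted p 0.0028 and 0.0041), but were not called with the length trend removed (0.39 and 0.44, adjusted p 0.0758 and 0.0896). The other called genes, also named after their values were seen, were Musk and Colq, higher at 0.68 and 0.64, and Dok7, lower at -1.03. The adjusted p reached 0.0908 for Musk without C1q replicate 2, 0.0768 for Colq without C1q replicate 3 and 0.101 for Dok7 without C1q replicate 1.

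Among 20 adhesion and cytoskeleton genes linked to myoblast fusion, 7 were called higher and 2 lower (median 0.15), beside 19.7% and 18.7% of all genes. With the length trend removed the median was -0.10, Elmo1, Dock1 and Trio were not called higher, Cdc42 was not called lower, Jam3 was called higher, and Rac1 and Myof were called lower. The co-receptor genes Cdon and Boc, whose products bind cadherins and hedgehog ligands, went from 2311 ± 72.5 to 5207 ± 233 and from 660 ± 100.0 to 2680 ± 333 (1.17 and 2.02, adjusted p 1.25e-04 and 1.80e-04). Kirrel, a homologue of the fly fusion receptors, was higher at 0.83 (adjusted p 2.66e-04). Dock1, a Rac activator, was at 0.60 (adjusted p 0.0012), or 0.20 (0.0584) with the length trend removed. None of these 4 genes showed the wide spread of the controls seen for Mymk, but they were named for their lowest p, which favours a narrow spread. Of the 20 genes, 6 fell from control replicate 1 to 2 to 3 as Mymk did, beside 19.3% of all genes.

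**Figure D5:**
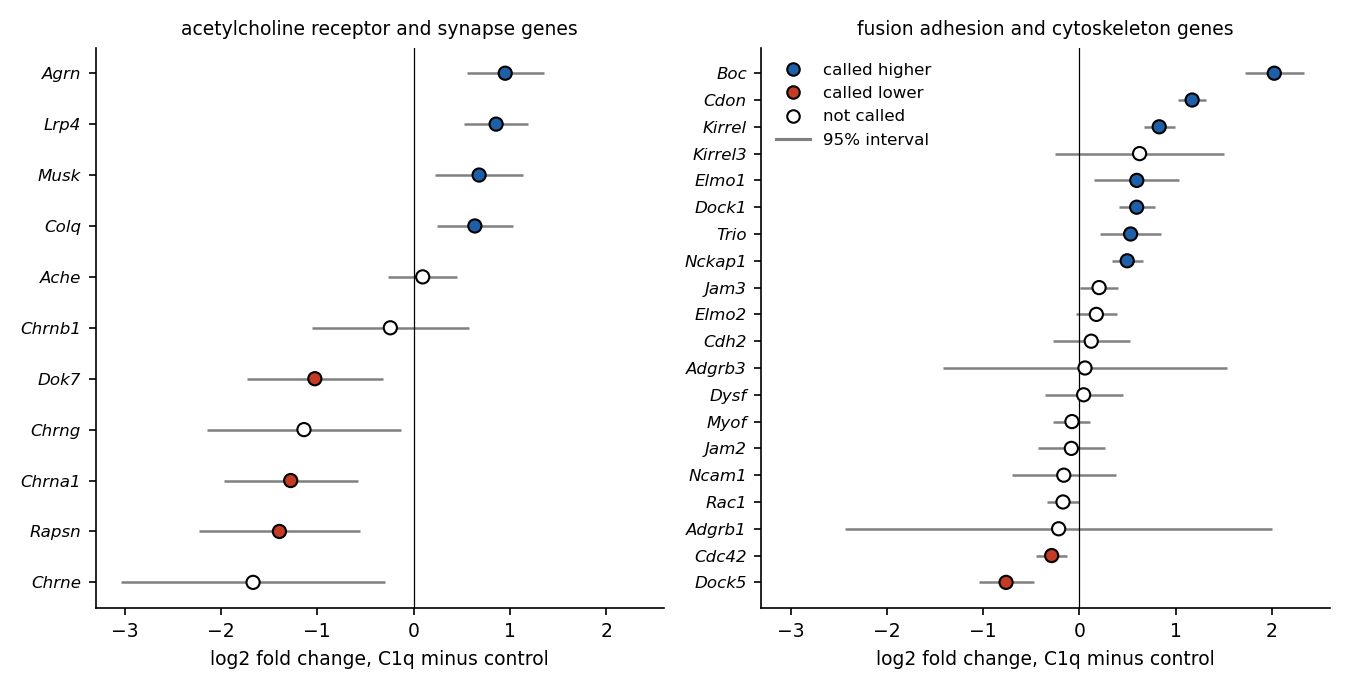
Log2 fold change, C1q minus control, with 95% intervals for 11 acetylcholine receptor and synapse genes (left) and 20 fusion adhesion and cytoskeleton genes (right); blue circles are called higher, red lower and white not called. Chrna1, Rapsn and Dok7 are called lower while Agrn, Lrp4, Musk and Colq are called higher, and Boc and Cdon have the highest values on the right.

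Of 21 upstream factors and MEF2 partners, 7 were called higher and 2 lower (median 0.23), beside 19.7% and 18.7% of all genes. The 9 calls became 5 with the length trend removed, where Six4, Met, Mef2a and Vgll3 were not called higher. They became 6 without control replicate 2, 5 without C1q replicate 1 and 4 without C1q replicate 2 or 3. Eya4, a transcriptional co-activator, was higher (0.74, adjusted p 0.0025), as was the somite factor Meox1 (0.62, adjusted p 0.0070). Srf, the serum response factor, was lower at -0.39 (adjusted p 0.0143, and 0.0590 without C1q replicate 1). Of 18 partners and repressors of the myogenic factors, most but not all of them helix-loop-helix proteins, 5 were called higher and 2 lower (median 0.31), beside the same shares of all genes. Without C1q replicate 2 or 3 there were 4 calls in all. The E protein gene Tcf12 was higher at 0.49 (adjusted p 6.78e-04), or 0.13 and not called with the length trend removed. The inhibitor Id2, which titrates E proteins, went from 408 ± 79.6 to 847 ± 157 (1.06, adjusted p 0.0029). The repressors Twist2 and Bhlhe40 were lower (-1.03 and -0.65, adjusted p 0.0026 and 0.0070). Twist1, Id3 and Snai1 of the same list went the other way and were called higher. Their log2 fold changes were each 0.36, with adjusted p of 0.0233, 0.0362 and 0.0459, and they are named after their values were seen. Each lost the call in several fits that left out 1 library, with adjusted p up to 0.0802, 0.106 and 0.141.

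Of 11 genes of the desmin network 2 were called higher and 2 lower (median -0.10), beside 19.7% and 18.7% of all genes. Synm, which encodes the filament partner synemin, went from 129 ± 43.1 to 447 ± 65.7 (1.83, adjusted p 0.0012). The small heat shock genes Hspb1 and Cryab, the second of which encodes a chaperone of desmin, were lower (-0.72 and -0.75, adjusted p 0.0023 and 0.0032), but at -0.19 and -0.30 (0.378 and 0.180) with the length trend removed. Plec, the linker protein plectin, was called higher at 0.40 (adjusted p 0.0086) and turned to -0.33 (0.0265) with that trend removed. Des itself had a lower fitted value and was not called.

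The 8 genes outside the list whose log2 values were most like the mean profile of the 9 members above 5 units were Gpd2, Jsrp1, Nacc1, Smarca4, Tpm2, Bex1, Tatdn2 and Fam78a, with Pearson r of 0.991 to 0.995 over 6 libraries. Tpm2, which encodes beta-tropomyosin, was at 15309, 10327 and 6921 in the controls and 4422, 5021 and 4930 with C1q. Jsrp1, which encodes a protein of the muscle calcium-release machinery, was at 716, 452 and 221 against 152, 160 and 167. Gpd2, a mitochondrial glycerol phosphate dehydrogenase, followed the same order over a much narrower range, from 616 down to 440. These correlations are descriptions chosen from all genes above 20 units.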

How the data were processed

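The deposited table holds a normalised signal: per gene (Entrez ID), the authors' reads were scaled by 1 size factor for each library, even though the file headers name featureCounts counts. The submitters' processing notes list Trimmomatic, HISAT2, featureCounts, DESeq2 and the mm10 build, without versions, annotation or strand setting. Within each library 100% of the values were whole multiples of what 1 read is worth, within 0.001 of a read, so reads were recovered. Symbols and positions came from RefSeq (GRCm38.p6) by Entrez ID (16077 of 16671 IDs), and transcript lengths from GENCODE vM21 (14933 IDs).

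All genes were fitted with limma-trend (limma 3.58.1, R 4.3.3) on log2(value + 1), with a minimum mean of 1 that removed no gene. Calls need a Benjamini-Hochberg adjusted p below 0.05. Alternatives were other pseudocounts, a minimum mean of 10, edgeR 4.0.16 quasi-likelihood, DESeq2 1.42.0 and limma-voom on recovered reads, array weights, a replicate block, removal of a loess length trend, and leaving out each library. The fit was also run on simulated counts that had the same dispersion at every gene and library. That run does not bear on calls under the wider spread of the controls seen here. Same-numbered libraries deviated together from their group means (r = 0.12, 0.17 and 0.13 for pairs 1, 2 and 3), each above the limit of 0.1 for pairing, a hint from the data and not from the labels. Replicates of a group differed by more than sampling noise in every pair (chi-square per degree of freedom 16.5 to 40.3).

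Named genes were all 10 members, up to 4 called genes of lowest p per partner list, the 3 of highest level in marker lists as far as they bear on the members, and the 8 of most similar profile; Pdgfra, Cdh15, defining markers of other cells and genes whose call an alternative changed were named in addition after their values were seen. A gene of the partner lists that this rule would name is not reported here. The members and lists were chosen with earlier results of these data known. Intervals on reads cover counting error only.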

Additional observations from a re-analysis of the deposited data

How the results depend on the processing

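The number of the 10 genes called was 4, and it moved to 8 with edgeR under TMM scaling, 8 with edgeR under the deposited size factors, 8 with DESeq2, 7 with limma-voom, 8 with array weights, 7 with the replicate block and 2 with the length trend removed; leaving out 1 library gave 2 to 8, the highest without control replicate 3, and the causes were not tested. Myod1 was called in all 17 fits, and Myf5 in the 16 that tested it. Over all genes 4599 to 7242 were called with 1 library left out, against 6389 (38.3%) in the main fit. Of the 81 partner genes 36 were called, beside that 38.3% of all genes, and 22 to 45 with 1 library left out. The replicate block, which rests on a pairing seen only in the data, changed the calls of Pax3, Mymx and Des and no other of the 10. The fitted value of Pax7, 0.08 and never called, turned negative with a pseudocount of 5 (-0.086), edgeR under TMM scaling (-0.94) or deposited size factors (-0.93), DESeq2 (-0.76), limma-voom (-0.71), array weights (-0.62) and the length trend removed (-0.24), and ran from -0.73 to 0.82 with 1 library left out, turning without control replicate 3 (-0.73) and without C1q replicate 1 (-0.17). Values of the other 9 genes kept their direction. Depth limits Pax3, Pax7 and Myf5, which had at most 38 reads in a library.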
